A study of Mus musculus with 6 samples.

Results

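Small intestinal organoids were examined for transcripts of enzymes that oxidise aldehydes and alcohols and of enzymes that break down histamine. The set was chosen by gene symbol, as the rows for Aldh1b1, Aldh2, Aldh3a2, Aldh7a1, Aldh9a1, Adh5, Adh6a, Maob, Hnmt and Aoc1, and all 10 were found among the 21397 genes of the table. The organoids were grown from small intestinal crypts of Fpr2f/f mice, whose Fpr2 gene is flanked by loxP sites, and no Cre driver is named for them in the labels. The treated group was cultured for 5 days with MMK-1, a synthetic peptide agonist of the formyl peptide receptor FPR2. The controls received the vehicle, 0.1% DMSO, for the same 5 days. Both groups were cultured in Matrigel with a commercial organoid growth medium and differ, as labelled, by the agonist alone. There were 3 libraries in each group, and each library was made from organoids of 3 mice. The mice were 8 to 12 weeks old. The protocol text gives the dose as 1 μmol/L, which was taken here, while the treatment field for MMK-1 reads 1 mmol/L. A single dose and a single time were sampled, and the labels do not say whether the libraries of a group are separate cultures, so the p-values measure the spread between these libraries, which may be technical.

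Aldehydes are reactive products of alcohol, lipid, amine and amino acid breakdown, and aldehyde dehydrogenases oxidise them to carboxylic acids with NAD+ or NADP+. Alcohol dehydrogenases work upstream, as they interconvert alcohols and aldehydes. Histamine is inactivated by oxidative deamination, for which the small intestinal epithelium is known to carry high diamine oxidase (Aoc1), or by ring methylation through Hnmt, after which monoamine oxidase B (Maob) oxidises the methylated product. Both routes give aldehydes that aldehyde dehydrogenases then clear, so the amine oxidases and the aldehyde dehydrogenases of the set are linked through their aldehyde intermediates.

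The proximal promoters of 3 of these genes are shown because their transcripts span the range of responses. Aoc1 was lowest relative to control, Aldh9a1 was the lowest of the aldehyde dehydrogenases in the set, and Adh6a overlapped its controls. RefSeq sequence of GRCm38.p6 held 9 promoter windows for 7 of the 10 genes, and each line gives the 250 bases before an annotated start, 5′ to 3′ on the gene's strand. All 4 windows shown lie on the plus strand. For Aoc1 the RefSeq windows cover starts at 2 places, and both are shown. The GENCODE vM21 model of the gene begins farther upstream, at chr6:48872896. Capitals mark matches on either strand to 6 short motifs. These are the TATA box (TATAAA), the core bound by CDX factors (TTTATNG), the core bound by GATA factors (AGATAA), a nuclear receptor half-site (AGGTCA), the AP-1 motif (TGANTCA) and the core of the antioxidant response element (TGACNNNGC).
Aoc1, chr6:48895005-48895254: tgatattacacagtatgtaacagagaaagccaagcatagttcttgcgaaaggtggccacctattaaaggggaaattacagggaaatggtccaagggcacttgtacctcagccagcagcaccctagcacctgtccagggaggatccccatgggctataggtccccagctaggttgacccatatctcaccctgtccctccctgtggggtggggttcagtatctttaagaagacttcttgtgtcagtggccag
Aoc1, chr6:48904736-48904985: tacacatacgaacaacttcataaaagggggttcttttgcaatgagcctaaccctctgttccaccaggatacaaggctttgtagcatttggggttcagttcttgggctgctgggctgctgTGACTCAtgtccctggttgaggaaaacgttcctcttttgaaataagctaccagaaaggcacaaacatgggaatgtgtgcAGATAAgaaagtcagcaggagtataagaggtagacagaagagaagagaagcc
Aldh9a1, chr1:167349741-167349990: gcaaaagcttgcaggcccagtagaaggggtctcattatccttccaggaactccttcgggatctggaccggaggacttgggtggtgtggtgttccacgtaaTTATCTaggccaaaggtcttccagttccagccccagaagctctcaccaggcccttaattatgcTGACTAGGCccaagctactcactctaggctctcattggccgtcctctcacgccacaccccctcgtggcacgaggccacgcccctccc
Adh6a, chr3:138313036-138313285: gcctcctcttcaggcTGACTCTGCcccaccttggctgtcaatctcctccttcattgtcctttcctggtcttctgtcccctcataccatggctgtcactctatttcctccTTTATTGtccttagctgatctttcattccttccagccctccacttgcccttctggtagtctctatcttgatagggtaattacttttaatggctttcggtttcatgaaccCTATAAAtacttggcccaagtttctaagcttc

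The upstream window of Aoc1 held none of the 6 motifs. The downstream window held a GATA core, which begins 52 bases before the start, and an AP-1 motif, which begins 131 bases before it. In Aldh9a1, a GATA core was found on the opposite strand at 150 bases and an antioxidant response core at 87 bases. Adh6a held a TATA box from 31 bases before its start. This match overlaps a CDX core on the other strand that begins at 32 bases. Another CDX core in Adh6a lies at 141 bases, and an antioxidant response core lies at 235 bases. Among 32851 mouse promoter windows of the same length, the TATA box was found in 12.4%, the CDX core in 9.81%, the GATA core in 9.99%, the nuclear receptor half-site in 14.0%, the AP-1 motif in 6.75% and the antioxidant response core in 10.2%. Over the 9 windows of the set, the GATA core, the TATA box and the antioxidant response core were each found in 2, the CDX core and the AP-1 motif in 1 each, and the half-site in 0. These matches are descriptions of letters in a window and were not tested for binding.

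The values are FPKM, in which the fragments on a gene are divided by its length and by the size of the library, so that levels can be set side by side between genes. Library totals recovered from the FPKM steps lay between 35512739 and 37537463 fragments, which makes counting error small for every gene of the set except Hnmt. MMK-1 and control libraries were compared by limma-trend on log2(FPKM + 1) for the 10551 genes whose mean FPKM reached 1, and the fold changes below are on that scale, which understates the change of low genes. By chi-square per degree of freedom on the recovered fragments, MMK-1 replicate 3 differed from MMK-1 replicates 1 and 2 by 45.1 and 38.6. MMK-1 replicates 1 and 2 differed from each other by 3.84. Replicate 3 was the highest MMK-1 library in 9 of the 9 tested genes of the set and in 60.7% of all genes tested.

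Most of these transcripts were lower with MMK-1, the amine oxidases most of all and the alcohol dehydrogenases least. Of the 9 genes tested, 8 were called lower by limma (Benjamini-Hochberg adjusted p up to 0.05), 0 were higher and 1, Adh6a, was not called. Among all genes tested, 73.2% were called, 24.7% lower and 48.5% higher. In those 8 genes every MMK-1 library lay below every control library, a pattern seen in 26.3% of all genes tested, while the opposite pattern was seen in 50.5%. A decrease of at least 2-fold with an unadjusted p up to 0.05 was reached by 3 genes, Aoc1, Maob and Aldh9a1. By this rule 3.65% of all genes were lower and 3.39% higher. The median log2 fold change of the 9 genes was -0.53 against 0.13 for all genes tested. Scaling the libraries by the median of ratios moved the median of all genes to 0.0061 and that of the set to -0.65, and the same 8 genes were called lower. That scaling also changed the balance over all genes from 5118 higher and 2606 lower calls to 3792 and 3828. In these bulk libraries, fewer cells of a type and less RNA per cell cannot be told apart.

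**Figure D1:**
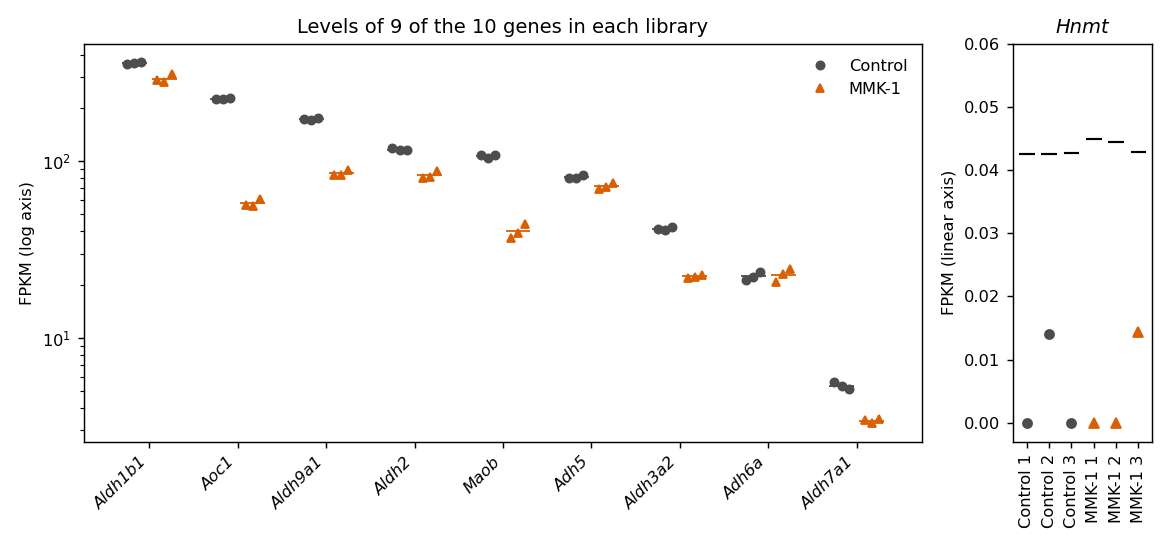
FPKM of the 10 genes in each library, with control libraries as grey circles, MMK-1 libraries as orange triangles and group means as short lines. The left panel has a log axis and shows the MMK-1 libraries below the controls in 8 of 9 genes, with overlap in Adh6a. The right panel shows Hnmt on a linear axis, where every library lies below the black lines that mark the FPKM of 3 fragments, 0.0425 to 0.0449.

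Aoc1 (NCBI gene 76507) encodes diamine oxidase, the secreted copper enzyme that deaminates histamine and putrescine, and it had the largest change of the set. The gene lies on the plus strand of chromosome 6 of GRCm38 (GENCODE vM21) at chr6:48872896-48909188, and its longest coding transcript has 4 exons. Its FPKM was 225, 223 and 227 in the controls and 56.6, 55.4 and 60.9 with MMK-1. The groups were far apart, and the libraries within a group lay close together. The mean fell from 225 ± 1.77 (SD, n = 3 libraries) to 57.6 ± 2.88 (SD, n = 3), or 25.6% of the control level. The log2 fold change of Aoc1 was -1.95 (standard error, SE, 0.044, 95% interval -2.05 to -1.85, limma adjusted p = 5.5e-09). Only 68 of the genes tested, or 0.644%, had a lower log2 fold change. The exact two-sided permutation p was 0.1, the smallest that 3 libraries against 3 can give, and it was 0.1 for each of the 8 lower genes.

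Maob (NCBI gene 109731) encodes monoamine oxidase B of the outer mitochondrial membrane, which oxidises N-methylhistamine and phenylethylamine. The gene is on the minus strand of the X chromosome at chrX:16709282-16817366, with 15 exons in the longest coding transcript. Its FPKM was 107, 104 and 108 in the controls and 36.9, 39.3 and 43.9 with MMK-1. The spread was wider in the MMK-1 libraries, where replicate 3 was highest, yet all of them lay far below the controls. The mean was 106.5 ± 2.21 (SD, n = 3) in controls and 40.0 ± 3.56 (SD, n = 3) with MMK-1, which is 37.6% of control. This is a log2 fold change of -1.39 (SE 0.0611, 95% interval -1.53 to -1.25, limma adjusted p = 1.9e-07).

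Hnmt (NCBI gene 140483) encodes histamine N-methyltransferase, the cytosolic enzyme of the methylation route, and these libraries held almost no fragments of it. Hnmt is on the minus strand of chromosome 2 at chr2:24002910-24049394. The controls held 0, 1 and 0 fragments on Hnmt, and the MMK-1 libraries held 0, 0 and 1. The 3 fragments that a count of 0 allows correspond to 0.0426 to 0.0449 FPKM in the 4 libraries at 0, and no change was detectable at this depth. Against that limit, taken per library, Aoc1 was at least 5293-fold and at least 5320-fold higher than Hnmt in control replicates 1 and 3. In MMK-1 replicates 1 and 2 it was at least 1261-fold and at least 1248-fold higher. Where a library held 1 fragment, the ratio of Aoc1 to Hnmt was 15800 (95% interval 2830 to 623000, exact Poisson) in control replicate 2 and 4250 (764 to 168000) in MMK-1 replicate 3. These intervals and limits cover counting error only. In every library the diamine oxidase transcript was thus far more abundant than that of the methyltransferase. A test of this ratio between the groups could not be made because Hnmt was at 0 in 4 libraries.

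Aldh9a1 (NCBI gene 56752) encodes the cytosolic enzyme that oxidises trimethylaminobutyraldehyde in carnitine synthesis and also aminoaldehydes from polyamines and histamine. It lies on the plus strand at chr1:167349991-167368532, with 11 exons. Its FPKM was 174, 170.4 and 176 in the controls and 83.8, 82.9 and 89.5 with MMK-1. Every MMK-1 library lay far below every control. The mean fell from 173 ± 2.73 (SD, n = 3) to 85.4 ± 3.57 (SD, n = 3), or 49.3% of control. On the log2 scale the change was -1.01 (SE 0.042, 95% interval -1.11 to -0.92, limma adjusted p = 1.4e-07). The interval spans a fold of 2, and the gene fell just short of that threshold without MMK-1 replicate 2 (-0.99), without MMK-1 replicate 1 (-0.99996) and on the TPM scale (-0.99).

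Aldh3a2 (NCBI gene 11671) encodes the fatty aldehyde dehydrogenase of the endoplasmic reticulum and peroxisome, which clears long-chain aldehydes from lipids. Its locus on the minus strand is chr11:61223417-61267464, with 10 exons. Its FPKM was 41.2, 40.6 and 42.2 in the controls and 21.9, 22.1 and 22.8 with MMK-1. The MMK-1 libraries were nearly level with each other and well separated from the controls. The mean was 41.4 ± 0.807 (SD, n = 3) in controls and 22.2 ± 0.51 (SD, n = 3) with MMK-1, which is 53.8% of control. Its log2 fold change was -0.87 (SE 0.0399, 95% interval -0.96 to -0.77, limma adjusted p = 2.5e-07). It missed the fold threshold of 2 and passed it when the libraries were scaled by the median of ratios, where its log2 fold change was -1.01.

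Aldh7a1 (NCBI gene 110695) encodes antiquitin, an enzyme of lysine breakdown that also handles lipid aldehydes and betaine aldehyde. It was the least abundant gene of the set with a testable level. Its FPKM was 5.63, 5.36 and 5.13 in the controls and 3.45, 3.28 and 3.48 with MMK-1, from 614 to 675 and from 377 to 413 fragments per library. The groups did not overlap, and the MMK-1 mean was 63.3% of control. On the log2 scale Aldh7a1 changed by -0.53 (SE 0.0524, 95% interval -0.65 to -0.41, limma adjusted p = 2.3e-05). The gene overlaps Phax on the opposite strand, and because no strand setting is given in the sources used here, fragments of the pair may not be fully separated.

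Aldh2 (NCBI gene 11669) encodes the mitochondrial enzyme that oxidises acetaldehyde from ethanol and several lipid aldehydes. It lies on the minus strand at chr5:121566027-121593824, with 13 exons. Its FPKM was 118, 115 and 115 in the controls and 80.3, 81.5 and 87.6 with MMK-1. All MMK-1 libraries lay below the controls, and replicate 3 was closest to them. The mean fell from 116 ± 1.68 (SD, n = 3) to 83.1 ± 3.94 (SD, n = 3), or 71.6% of control, a log2 fold change of -0.48 (SE 0.0438, limma adjusted p = 1.5e-05).

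Aldh1b1 (NCBI gene 72535) encodes another mitochondrial acetaldehyde dehydrogenase, known from stem and progenitor cells of the gut, and it was the most abundant gene of the set in both groups. The gene occupies chr4:45799022-45804604 on the plus strand and has only 2 exons. Its FPKM was 356, 357 and 363 in the controls and 286, 281 and 309 with MMK-1. The fall was the smallest among the 5 aldehyde dehydrogenases, yet it exceeded the spread between libraries. The mean fell from 359 ± 3.81 (SD, n = 3) to 292 ± 14.9 (SD, n = 3), or 81.5% of control. The corresponding log2 fold change was -0.29 (SE 0.0444, 95% interval -0.40 to -0.19, limma adjusted p = 0.00033), and it was -0.44 under median-of-ratios scaling.

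Adh5 (NCBI gene 11532) encodes the glutathione-dependent formaldehyde dehydrogenase, which also reduces S-nitrosoglutathione and is found in nearly every tissue. Its position on the plus strand is chr3:138443093-138455499, with 9 exons. Its FPKM was 79.9, 80.0 and 83.1 in the controls and 69.1, 71.1 and 75.4 with MMK-1. The groups did not overlap, but the gap between them was small. The mean was 81.0 ± 1.83 (SD, n = 3) in controls and 71.9 ± 3.22 (SD, n = 3) with MMK-1, which is 88.7% of control. This gave a log2 fold change of -0.17 (SE 0.0444, 95% interval -0.27 to -0.070, limma adjusted p = 0.0071), and median-of-ratios scaling gave -0.32.

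Adh6a (NCBI gene 69117) encodes another enzyme of the alcohol dehydrogenase family and was the exception among the genes tested. It lies on the plus strand at chr3:138313286-138331134, with 8 exons. Its FPKM was 21.2, 22.2 and 23.5 in the controls and 20.7, 23.1 and 24.6 with MMK-1. The groups overlapped over nearly their whole range. The log2 fold change was 0.03 with a 95% interval of -0.12 to 0.18 (SE 0.0668, limma adjusted p = 0.72), and the exact two-sided permutation p was 0.8. The interval leaves room for a modest change in either direction, and the sign depended on the scaling, with -0.11 under the median of ratios.

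The order of levels changed with treatment. In the controls the order by mean FPKM ran from Aldh1b1 through Aoc1, Aldh9a1, Aldh2, Maob, Adh5, Aldh3a2, Adh6a and Aldh7a1 to Hnmt, and the ranges of neighbouring genes did not overlap. With MMK-1, Aldh1b1 still came highest, followed by Aldh9a1 and Aldh2, whose ranges overlapped, and then by Adh5, Aoc1 and Maob. Aoc1 moved from rank 2 to rank 5, below Adh5. Adh6a and Aldh3a2, which differed in the controls, overlapped with MMK-1. Levels between genes rest on the gene lengths that the authors' counting used. The length implied by the FPKM was 7829 bases for Aldh3a2, where the coding transcripts of GENCODE cover 5317, and 1341 bases for Adh6a, where they cover 2542. Smaller departures were seen for Aldh7a1 (3199 against 4255) and Aldh9a1 (3360 against 2835). The rank of these genes therefore depends on the annotation.

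The other genes of these pathways were taken from lists of 52 genes in all. Of these, 26 were tested, 6 were higher, 16 were lower and 4 were not called, with a median log2 fold change of -0.46 against 0.13 for all genes tested. Medians were below 0 for the aldehyde dehydrogenases, the alcohol dehydrogenases and reductases and the histidine genes, and above 0 (0.41) for amine and polyamine oxidation.

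Among 16 other aldehyde dehydrogenases, 9 were tested, of which 6 were lower and 3 higher. Aldh1a1, the cytosolic retinaldehyde dehydrogenase, had the largest fall. Its FPKM was 443, 428 and 434 in the controls and 51.1, 52.4 and 54.6 with MMK-1, a log2 fold change of -3.02 (SE 0.0398, limma adjusted p = 4.9e-10). Aldh1a7, a near-identical neighbour whose fragments could have been split with those of Aldh1a1, fell from 124.6 ± 3.1 to 20.4 ± 1.22 FPKM (SD, n = 3 each), a log2 fold change of -2.55. Aldh1l1, the cytosolic 10-formyltetrahydrofolate dehydrogenase, fell from 31.2 ± 0.583 to 15.0 ± 1.11 FPKM. Its mitochondrial counterpart Aldh1l2 rose from 3.33 ± 0.0647 to 6.19 ± 0.274 FPKM, so the folate-linked pair moved in opposite directions, with log2 fold changes of -1.01 and 0.73. Aldh5a1, which oxidises succinic semialdehyde from GABA, was higher by 0.30 on the log2 scale, and by 0.17 under median-of-ratios scaling. Aldh18a1, which makes pyrroline-5-carboxylate for proline, was higher by 0.14 (limma adjusted p = 0.025), and its log2 fold change was -0.0070 under median-of-ratios scaling, 0.058 under upper-quartile scaling and 0.093 without MMK-1 replicate 3. It was not called under either scaling, nor without control replicate 1 (0.13, limma adjusted p = 0.072) or control replicate 2 (0.13, limma adjusted p = 0.085).

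The summed FPKM of all 21 aldehyde dehydrogenases was 1553, 1529 and 1554 in the controls and 809.7, 808 and 875 with MMK-1. The total with MMK-1 was therefore well below that of the controls, at 831 ± 38.5 against 1545 ± 14.1 (SD, n = 3 each, exact two-sided permutation p = 0.1, the smallest possible). The 5 aldehyde dehydrogenases of the set summed to 695 ± 6.75 in controls and 486.5 ± 22.8 with MMK-1. They took a larger share of the total with MMK-1, 58.5% ± 0.229 against 44.96% ± 0.207 in controls. Aldh1b1 alone rose from 23.2% ± 0.237 to 35.2% ± 0.307 of the total. Aldh1a1 dropped from 28.2% ± 0.349 to 6.35% ± 0.127, so that the most abundant aldehyde dehydrogenase transcript was Aldh1a1 in controls and Aldh1b1 with MMK-1. The share of Aldh2 rose from 7.52% ± 0.089 to 10.01% ± 0.0875, and that of Aldh9a1 fell from 11.2% ± 0.0885 to 10.3% ± 0.0683. The share of Aldh3a2 was 2.68% ± 0.0359 in controls and 2.68% ± 0.0648 with MMK-1, a difference smaller than the spread between libraries. Apart from Aldh3a2, whose exact permutation p was 1, each of these shares had an exact two-sided permutation p of 0.1.

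**Figure D2:**
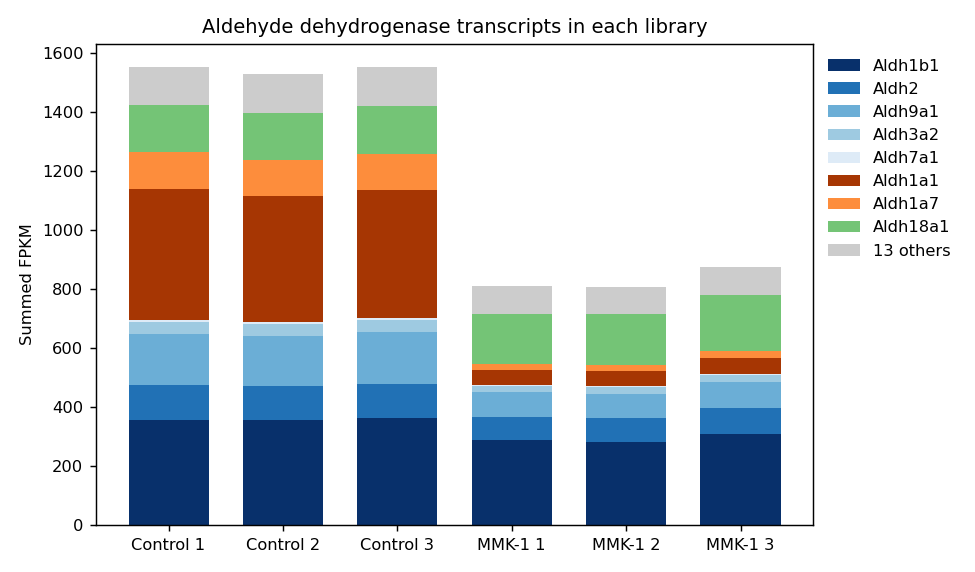
Summed FPKM of the 21 aldehyde dehydrogenases in each library, on a linear axis from 0, with the 5 genes of the set in blues, Aldh1a1 and Aldh1a7 in browns and oranges, Aldh18a1 in green and the other 13 in grey. The bars of the controls reach 1529 to 1554 and those of MMK-1 reach 808 to 875, and the Aldh1a1 segment shrinks from 28.2% to 6.35% of the bar on average.

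Of 12 other alcohol dehydrogenases and aldehyde reductases, 9 were tested, of which 6 were lower, 0 were higher and 3 were not called. Adh1, the main hepatic and intestinal ethanol and retinol dehydrogenase, was 481, 499 and 496 FPKM in the controls and 193, 189 and 211 with MMK-1, a log2 fold change of -1.31 (SE 0.0477, limma adjusted p = 6.9e-08). Adh4 fell from 3.91 ± 0.182 to 1.31 ± 0.177 FPKM (SD, n = 3 each), a log2 fold change of -1.09. Akr1b8, an aldo-keto reductase, fell from 5.75 ± 0.504 to 3.34 ± 0.314 FPKM. The 3 not called were the reductases Akr1a1 (log2 fold change -0.05), Akr1b3 (-0.14) and Akr7a5 (-0.05), and all 3 were called lower under median-of-ratios scaling. Adh5 and Adh6a therefore lay at the small end of the changes in their family.

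The alcohol dehydrogenases lie next to each other on chromosome 3, and RefSeq places Adh7, Adh1, Adh6a, Adh6b, Adh4 and Adh5 in this order between chr3:138198064-138232042 (Adh7) and chr3:138437200-138455499 (Adh5). Within this stretch the responses alternated. Adh1 was at 40.2% of its control level, Adh6a at 102%, Adh4 at 33.5% and Adh5 at 88.7%, while Adh7 (at most 0.851 FPKM in any library) and Adh6b (at most 1 fragment) were under the filter. The neighbouring pair on the X chromosome, Maoa and Maob, responded more alike, at 44.9% and 37.6% of control. Differences between neighbours were not tested, so the alternation is given as values.

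**Figure D3:**
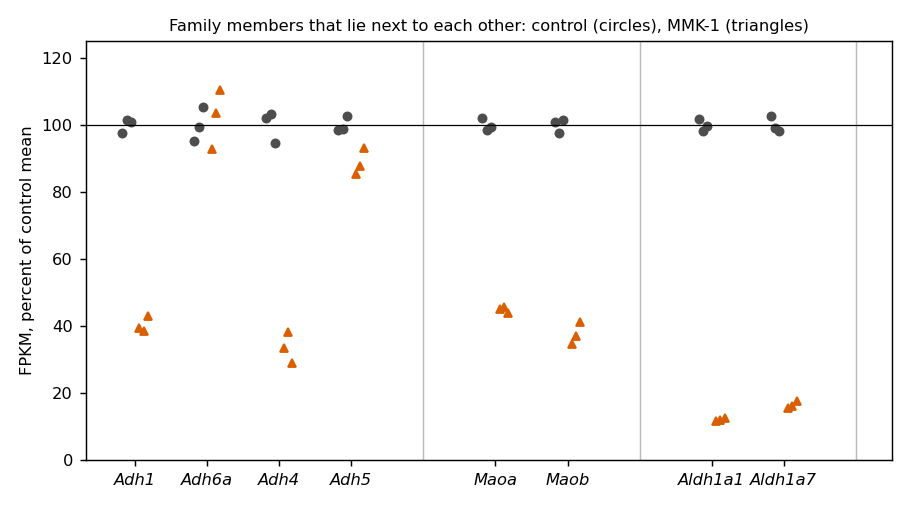
FPKM as a percentage of each gene's control mean on a linear axis from 0, for the tested genes of 3 groups of neighbours, with controls as grey circles and MMK-1 libraries as orange triangles. Adh6a and Adh5 stay near 100% (means 102% and 88.7%) beside Adh1 and Adh4 (40.2% and 33.5%), whereas Maoa and Maob (44.9% and 37.6%) and Aldh1a1 and Aldh1a7 (12.1% and 16.4%) lie far below their controls.

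Among 9 other genes of histamine and histidine metabolism, 3 were tested and all 3 were lower. Maoa, the monoamine oxidase that prefers serotonin and noradrenaline, was 336, 323 and 327 FPKM in the controls and 148, 150.1 and 144 with MMK-1, a log2 fold change of -1.15 (SE 0.0371, limma adjusted p = 3.6e-08). It exceeded Maob in every library. The ratio of Maoa to Maob was 3.09 ± 0.0547 in controls and 3.71 ± 0.379 with MMK-1 (SD, n = 3 each, exact two-sided permutation p = 0.1, the smallest possible), with the MMK-1 ratios spread from 3.28 to 4.02. Cndp2, a cytosolic dipeptidase, fell from 228 ± 3.09 to 64.7 ± 1.58 FPKM, and Cndp1, which cleaves carnosine into histidine and beta-alanine, fell from 6.93 ± 0.629 to 2.40 ± 0.259, with log2 fold changes of -1.80 and -1.22. Hdc, the decarboxylase that makes histamine, was at most 0.0505 FPKM, from 0 to 5 fragments per library. The diamine oxidase transcript was thus abundant in organoids that held almost none of Hdc or of Hnmt.

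Of 8 histamine receptors and carriers, 5 had a row and 0 passed the filter, with a summed level of 0.633 to 0.657 FPKM in the controls and 0.819 to 1.02 with MMK-1. Hrh1, the receptor known for smooth muscle and endothelial responses, held 8, 9 and 11 fragments in the controls and 2, 0 and 1 with MMK-1, and it was lower when every gene above 0 was tested (limma adjusted p = 0.0016). Slc22a3, an extraneuronal monoamine transporter, held 22, 13 and 21 fragments in the controls and 35, 26 and 33 with MMK-1, and it was higher in that fit (limma adjusted p = 0.025). The other 3 genes of the list with a row were not called there.

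Of 7 other genes of amine and polyamine oxidation, 5 were tested, of which 3 were higher, 1 was lower and 1 was not called. The 3 that rose handle spermine and spermidine, which share putrescine with diamine oxidase. Paox rose from 1.54 ± 0.0884 to 3.19 ± 0.25 FPKM, Smox from 1.13 ± 0.0599 to 2.25 ± 0.136 and Sat1, the acetyltransferase, from 63.0 ± 2.16 to 84.2 ± 4.56 (SD, n = 3 each), with log2 fold changes of 0.72, 0.61 and 0.41. That of Smox was 0.93 with a pseudocount of 0.1 and 0.99 with limma-voom, and that of Sat1 was 0.27 both under median-of-ratios scaling and with the GC correction. Pipox, which oxidises pipecolic acid and sarcosine, fell from 96.7 ± 1.41 to 47.8 ± 0.74 FPKM, a log2 fold change of -1.003. Aoc2, an amine oxidase related to Aoc1, had a log2 fold change of -0.06 with a 95% interval of -0.21 to 0.086.

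**Figure D4:**
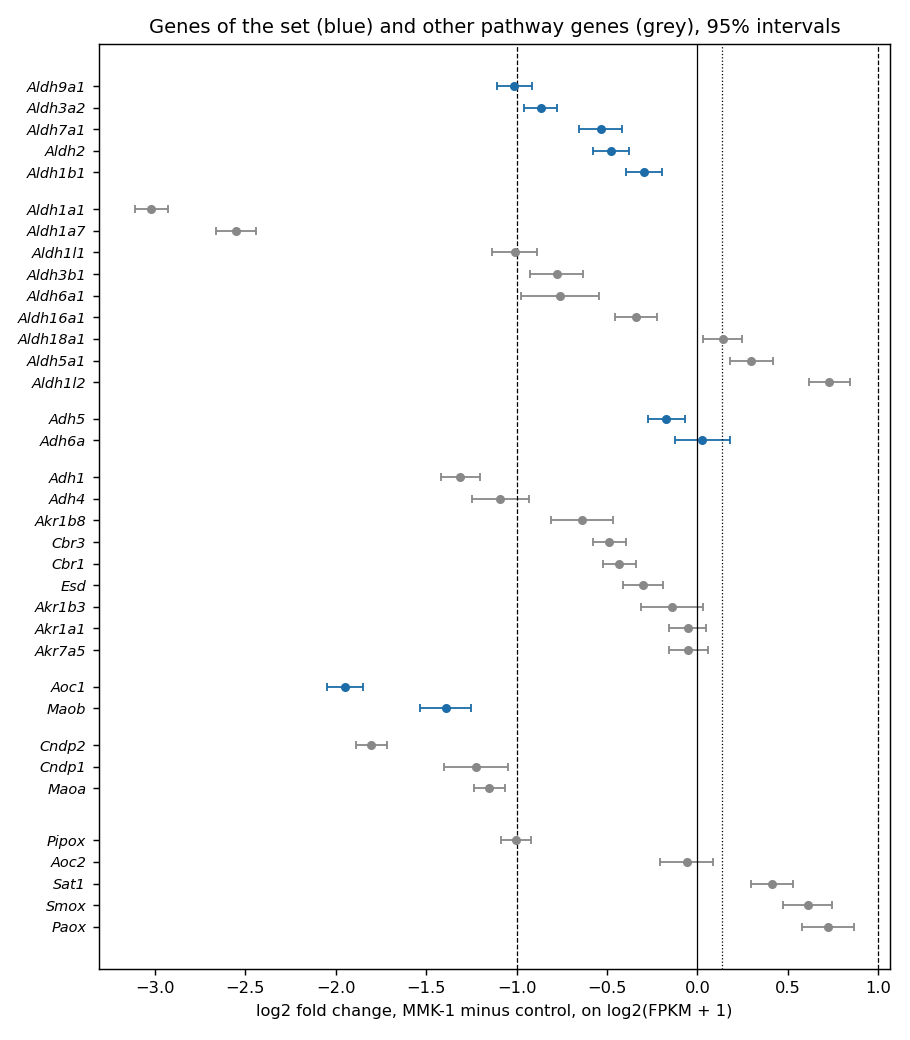
Log2 fold changes (MMK-1 minus control, on log2(FPKM + 1)) with 95% intervals for the 9 tested genes of the set in blue and 26 other pathway genes in grey, grouped from top to bottom as aldehyde dehydrogenases, alcohol dehydrogenases and reductases, histamine metabolism, and amine and polyamine oxidation. Dashed lines mark a fold of 2, the dotted line the median of all genes tested (0.13). Aoc1 (-1.95) and Maob (-1.39) lie farthest left in the set, and Adh6a (0.03) spans 0.

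The genes with a pattern closest to that of Aoc1, by the root mean square difference of log2(FPKM + 1) from the control mean over the 6 libraries, were Ms4a8a (0.0413), H2-T3 (0.0441) and Fabp2 (0.0447). The FPKM of Fabp2, the intestinal fatty acid binding protein of enterocytes, was 1428 ± 39.8 in controls and 357 ± 23.3 with MMK-1 (SD, n = 3 each), a fall close to that of Aoc1, which stood at 25.6% of control. Ms4a8a stood at 25.8% and H2-T3, a nonclassical class I gene, at 24.8% of control. Falls of similar size follow from the choice, since these 3 genes were picked for their nearness to Aoc1 in the same 6 libraries. H2-T3 belongs to a family of similar genes, and how shared reads were assigned is not given in the sources used here.

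Among markers of the cell types in the organoids, nearly all those of enterocytes fell with the set, while those of stem, proliferating and Paneth cells rose. The enterocyte markers, 13 of 13 tested, were lower in 12 and higher in 1 (Fabp1), with a median log2 fold change of -0.96. Their summed level was 10085 to 10190 FPKM in the controls and 5661 to 6078 with MMK-1, and their defining markers Vil1 and Fabp2 were both lower. All 6 stem cell markers were higher, with a median log2 fold change of 1.84 and a summed level of 66.0 to 67.7 FPKM against 381 to 409. All 7 proliferation markers and all 5 tested Paneth cell markers were higher as well. Of 7 goblet cell markers 5 were higher and 2 lower, and of 8 enteroendocrine markers 6 were higher and 2 were not called. None of the 8 tuft cell markers passed the filter. The part of these cell types in the change of the set was not tested. Defining markers of mast cells, leukocytes, fibroblasts and endothelium were at or near 0 or had no row. Of 10 mast cell markers, 4 had a row, Mcpt4 was at 0 in all libraries, and Mcpt2 and Cma1 held at most 1 fragment each, while Kit, which epithelial cells also express, made up nearly the whole summed level of 1.66 to 1.93 FPKM in controls and 3.10 to 3.56 with MMK-1. The leukocyte marker Ptprc was at most 0.0136 FPKM, and of 8 markers of other immune cells 2 were tested, Cd68 and Itgam, both lower, with a summed level of 6.21 to 6.74 FPKM in controls and 2.47 to 3.32 with MMK-1. The 8 fibroblast and muscle markers summed to at most 0.165 FPKM and the 3 endothelial markers with a row to at most 0.301 in any library.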

How the data were processed

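Total RNA of small intestinal organoids was sequenced as 150-bp paired-end reads on an Illumina platform. The authors deposited FPKM values for each library, that is, fragments divided by gene length and library total, with no further scaling between libraries stated. The submitters' processing notes name HISAT2, HTSeq, R 3.2.0, DESeq2 and the mm10 build with no role for each, and the annotation and strand setting are not given in the sources used here. Per the labels, samples were grouped as MMK-1 (n = 3) and Control (n = 3). No column of other samples was present.

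FPKM values of a gene were whole multiples of a step, from which library totals and the fragments of 20676 genes were recovered. Every value lay within 0.003 of a whole fragment, a closeness that the search for gene lengths itself required. The smallest length that met it was taken, so the fragments of some genes could be understated. The recovered fragments on listed genes made up 99.7% of each total. Differences were tested with limma 3.58.1 in R 4.3.3 (trended empirical Bayes) on log2(FPKM + 1). The pseudocount was 1, genes entered when their mean FPKM reached 1, and p-values were adjusted by Benjamini-Hochberg over all 10551 genes tested. Exact two-sided permutation tests were run for single values. Alternatives covered upper-quartile and median-of-ratios scaling, TPM, the filter, the pseudocount, a replicate block, leaving out each replicate, limma-voom on the recovered fragments, a GC correction and a fold of 1.5. The limma test and the recovery of fragments were run on simulated data as well. Other steps used scipy 1.17.1, pandas 2.3.3, numpy 2.4.6 and matplotlib 3.10.9 under Python 3.11.15. Coordinates are those of GENCODE vM21 on GRCm38 for the genes of the set, and of RefSeq on GRCm38.p6 for promoters and neighbouring genes.

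The genes of the set, the pathway lists and the marker lists (enterocyte, stem cell, proliferation, Paneth, goblet, enteroendocrine, tuft, mast, other immune, fibroblast and muscle, endothelial) were chosen with earlier results of these data known. The genes named were the whole set, the 3 largest changes in each direction among called genes of each pathway list, Hdc, Maoa and Aldh1a1, and the 3 genes with a pattern nearest to that of the gene that changed most. Aoc2, Hrh1, Slc22a3, Akr1a1, Akr1b3, Akr7a5, the genes neighbouring Adh6a, Cd68, Itgam, Kit and Fabp1 were named after their values were seen.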

Additional observations from a re-analysis of the deposited data

How the results depend on the processing

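The 8 genes called lower in the limma test were lower under every alternative run, except that Aldh7a1 was not tested when a mean FPKM of at least 5 was required, and their adjusted p was at most 0.037 (Adh5 without control replicate 3). The sign of Adh6a, which was never called, was reversed by upper-quartile scaling (-0.051), by median-of-ratios scaling (-0.11) and by the GC correction (-0.058), and with replicates left out in turn it ranged from -0.026 to 0.093, with -0.0059 without control replicate 1. Genes of the set past a fold of 2 numbered 3, and 4 under the median of ratios, 2 on the TPM scale, 2 without MMK-1 replicate 1 and 2 without MMK-1 replicate 2. Among other pathway genes, Aldh18a1 was reversed by the median of ratios (-0.0070), and its call was lost under upper-quartile scaling, without control replicate 1, without control replicate 2 and with every gene above 0 tested. Genes given as not called passed the threshold as lower under the median of ratios, namely Akr1a1 (adjusted p = 0.0014), Akr1b3 (0.0087), Akr7a5 (0.0025) and Aoc2 (0.022, limma), and Akr7a5 moved to -0.29 with the GC correction. The first 3 also passed under upper-quartile scaling, with the GC correction and without MMK-1 replicate 3, and Akr1b3 without control replicate 1 and with the replicate block. Over all genes, those at least 2-fold higher numbered 358, against 230 under the median of ratios, 558 on the TPM scale, 215 with a mean FPKM of at least 5, 676 with a pseudocount of 0.1, 727 with limma-voom, 1097 with every gene above 0 and a pseudocount of 0.1 (an alternative chosen after seeing the data) and 1502 at a fold of 1.5. Those at least 2-fold lower numbered 385, against 818 with every gene above 0 and a pseudocount of 0.1 and 855 at a fold of 1.5. Calls at an adjusted p of at most 0.05 were 5118 higher and 2606 lower, against 4395 and 3291 under upper-quartile scaling and 4196 and 3576 with the GC correction. The cause of these shifts was not tested. The labels do not say whether replicate numbers pair the samples. The deviations of same-numbered libraries from their group means had correlations of 0.025, -0.040 and 0.028. With 3 libraries in each group, these values cannot decide whether same-numbered libraries share a source. A replicate block gave 5024 higher and 2543 lower calls, and changed no call in the set and 1 among the other pathway genes (Akr1b3). Not every library correlated best with its own number. Of 22 genes of the set and lists under the filter, testing every gene above 0 with limma called 2 lower (Hrh1, Adhfe1) and 2 higher (Slc22a3, Amdhd1), while Hnmt and Hdc were not called at 0 to 5 fragments per library.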

Other observations

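Some low genes of these pathways lay under the filter of the main test, and were chosen here after their values were seen. Adhfe1, a mitochondrial hydroxyacid-oxoacid transhydrogenase, held 129, 194 and 173 fragments in the controls and 26, 21 and 40 with MMK-1, so all MMK-1 libraries lay far below the controls, and it was lower when every gene above 0 was tested (limma adjusted p = 0.00074). Amdhd1, an enzyme of histidine breakdown, held 1, 0 and 0 fragments in the controls and 2, 6 and 4 with MMK-1, and was higher in that fit (limma adjusted p = 0.036). Hrh3, a histamine receptor known from neurons, held 1 fragment in each control and 22, 1 and 3 with MMK-1, with the excess in MMK-1 replicate 1 alone. Adh7, the alcohol dehydrogenase of the upper digestive tract, held 22, 51 and 34 fragments in the controls and 74, 51 and 52 with MMK-1. The fragment counts met at 51, while the FPKM did not overlap, at most 0.555 in the controls and at least 0.572 with MMK-1. Adh7 was not called when every gene above 0 was tested (limma adjusted p = 0.094). Hal, which opens histidine breakdown, held 16, 2 and 2 fragments in the controls and 12, 11 and 11 with MMK-1, with control replicate 1 above the other two controls.

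The annotation columns of the deposited table place 24 genes in the histidine metabolism pathway of KEGG, of which 8 belong to the set. The pathways given here were chosen after the values were seen, and no test was made of them. Of the 13 genes of histidine metabolism tested one by one, 12 were lower and 1, Carnmt1, was higher, and the median log2 fold change was -1.01, where 24.7% of all genes tested were lower and 48.5% higher. Fatty acid degradation had 24 lower and 8 higher of 36 genes tested (median -0.28), beta-alanine metabolism 18 lower and 3 higher of 23 (median -0.50), tryptophan metabolism 20 lower and 2 higher of 24 (median -0.53) and retinol metabolism 33 lower and 2 higher of 41 (median -0.89). These pathways share genes with each other and with the set.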
